A study of Mus musculus with 10 samples.

Results

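Serum amyloid A, lipocalin 2 and the enzymes of epithelial oxidant defence were followed in the colitic mouse colon through 10 genes, Saa1, Saa2, Saa3, Lbp, Lcn2, Duox2, Duoxa2, Nox1, Nos2 and Slc6a14. The genes were taken by symbol from the array's annotation, with the probe set of highest mean over the 10 arrays for each gene. Of the 10 genes, 9 had a named probe set among 19505 genes, each with 1 probe set. Duox2 had none named and was not analysed here.

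All arrays came from complete colon tissue of wildtype C57BL/6 mice made colitic by 3% dextran sulfate sodium (DSS), a polysaccharide that injures the colonic epithelium, in the drinking water together with intraperitoneal anti-PD1, an antibody against an immune checkpoint. In 5 samples (ECP arrays) the mice had also received donor cells treated by extracorporeal photopheresis, that is, sensitised by a drug and then irradiated with ultraviolet light ex vivo. The other 5 samples (control arrays) had DSS and anti-PD1 without donor cells. Both groups had colitis, and the comparison asks how transfer of ECP-treated cells altered the inflamed colon; no array of uninflamed colon was analysed here. Values are log2 intensities from robust multi-array averaging (RMA), so a difference of 1 is a doubling of signal. Since no label states whether arrays came from different mice, the p-values describe only the variation among these samples, which may be technical, and the number of arrays limits the precision.

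Colonic epithelium answers microbes and cytokines such as interleukin-1, interleukin-6, interleukin-17 and interleukin-22 with a shared defence output. Serum amyloid A proteins are small acute phase proteins that bind lipids and retinol and attract leukocytes, lipocalin 2 captures bacterial siderophores and so withholds iron, and lipopolysaccharide-binding protein hands bacterial lipopolysaccharide to CD14. The oxidases DUOX2 and NOX1 release hydrogen peroxide and superoxide at the epithelial surface, DUOXA2 is the maturation factor that brings DUOX2 to the membrane, and inducible nitric oxide synthase makes nitric oxide from arginine. SLC6A14 is a sodium- and chloride-driven carrier of neutral and cationic amino acids, including arginine. Lipocalin 2 is also stored in neutrophil granules, and Saa3, Lbp and Nos2 can be expressed by macrophages, stromal or fat cells as well as by epithelium, so in whole tissue more cells of a type and more RNA per cell cannot be told apart.

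Upstream windows are shown for 4 genes, Saa1, Saa2, Saa3 and Lcn2. Saa1 and Saa2 varied together over the arrays and had nearly the same upstream sequence, and each probe set may read both transcripts. Saa3, in the same gene cluster, varied with Lcn2 on another chromosome. Without control replicate 4, Saa1 also varied with Lcn2 (r = 0.85). Whether upstream sequence bears on which genes vary together was not tested. RefSeq's promoter table (build GRCm38.p6) held 8 of the 10 genes; each line gives the 250 bases before the transcription start, 5′ to 3′ in the direction of the gene, at chr7:46742981-46743230 (minus strand), chr7:46751583-46751832 (plus strand), chr7:46715677-46715926 (minus strand) and chr2:32387740-32387989 (minus strand). Capitals mark matches to TTNNGNAA, a simple form of the C/EBP motif, on either strand, or to the NF-kB consensus, which had no match in these 4 windows.
Saa1: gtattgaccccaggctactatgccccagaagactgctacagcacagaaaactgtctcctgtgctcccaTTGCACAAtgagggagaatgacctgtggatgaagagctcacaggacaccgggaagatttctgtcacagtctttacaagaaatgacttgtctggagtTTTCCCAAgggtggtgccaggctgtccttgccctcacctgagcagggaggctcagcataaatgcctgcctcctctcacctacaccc
Saa2: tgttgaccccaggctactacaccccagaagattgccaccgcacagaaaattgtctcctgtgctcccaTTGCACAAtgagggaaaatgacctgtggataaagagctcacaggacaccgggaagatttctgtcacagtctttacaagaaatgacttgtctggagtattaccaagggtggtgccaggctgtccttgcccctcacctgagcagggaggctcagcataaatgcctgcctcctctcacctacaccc
Saa3: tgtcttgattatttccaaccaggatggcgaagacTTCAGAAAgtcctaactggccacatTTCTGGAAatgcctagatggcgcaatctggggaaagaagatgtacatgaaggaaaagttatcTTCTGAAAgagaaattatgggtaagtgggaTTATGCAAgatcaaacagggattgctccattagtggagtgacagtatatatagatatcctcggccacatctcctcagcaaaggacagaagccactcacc
Lcn2: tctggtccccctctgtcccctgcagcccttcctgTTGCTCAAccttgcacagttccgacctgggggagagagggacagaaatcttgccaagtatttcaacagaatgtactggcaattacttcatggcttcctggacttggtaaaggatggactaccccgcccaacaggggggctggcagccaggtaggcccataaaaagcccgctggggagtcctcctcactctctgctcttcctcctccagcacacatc
The Saa1 and Saa2 windows were identical at 95.6% of aligned positions, with 11 mismatches. Saa1 and Saa3 were identical at 64.4% (68 gap positions), no closer than Saa1 and Lcn2 at 71.1% (92 gap positions). Gaps are not counted in these shares. Apart from Saa1 with Saa2, all pairs of the 8 windows lay between 56.1% and 71.1%. The C/EBP form was found in 6 of the 8 windows of this gene set and in 36.9% of 32851 RefSeq windows of the same length, so it is a common match. The STAT form TTCNNNGAA was in 0 of the 8 and 7.02% of all windows, the AP-1 form TGANTCA in 2 (Duoxa2 and Slc6a14) and 6.75%, and the NF-kB consensus in 1 (Nox1) and 3.90%. The match at -182 to -175 in Saa1 and that at -183 to -176 in Saa2 read the same letters, TTGCACAA, and a further match in Saa1 at -86 to -79 has no counterpart in Saa2. Both strands were searched, and no match in the windows of this set overlapped one of another motif. These are letter matches only.

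No gene of the set differed between the groups past the threshold. With limma and Benjamini-Hochberg adjustment over 19505 genes, 0 of the 9 had an adjusted p under 0.05, in an array comparison in which 0% of all genes passed, and 0 of 9 had an unadjusted p under 0.05, against 5.08% of all genes (2.31% higher and 2.77% lower in the ECP arrays). The mean was higher in the ECP arrays for 8 of the 9 genes and lower for Lbp, where 53.3% of all genes had a higher mean. The median difference of the 9 genes was 0.07, against 0.01 over all genes. In none of the 9 were the groups separate, a pattern that 1.22% of all genes showed in either direction. Lcn2, Nos2 and Saa3 ranged widely between control arrays and stayed in a narrower band in the ECP arrays.

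**Figure D1:**
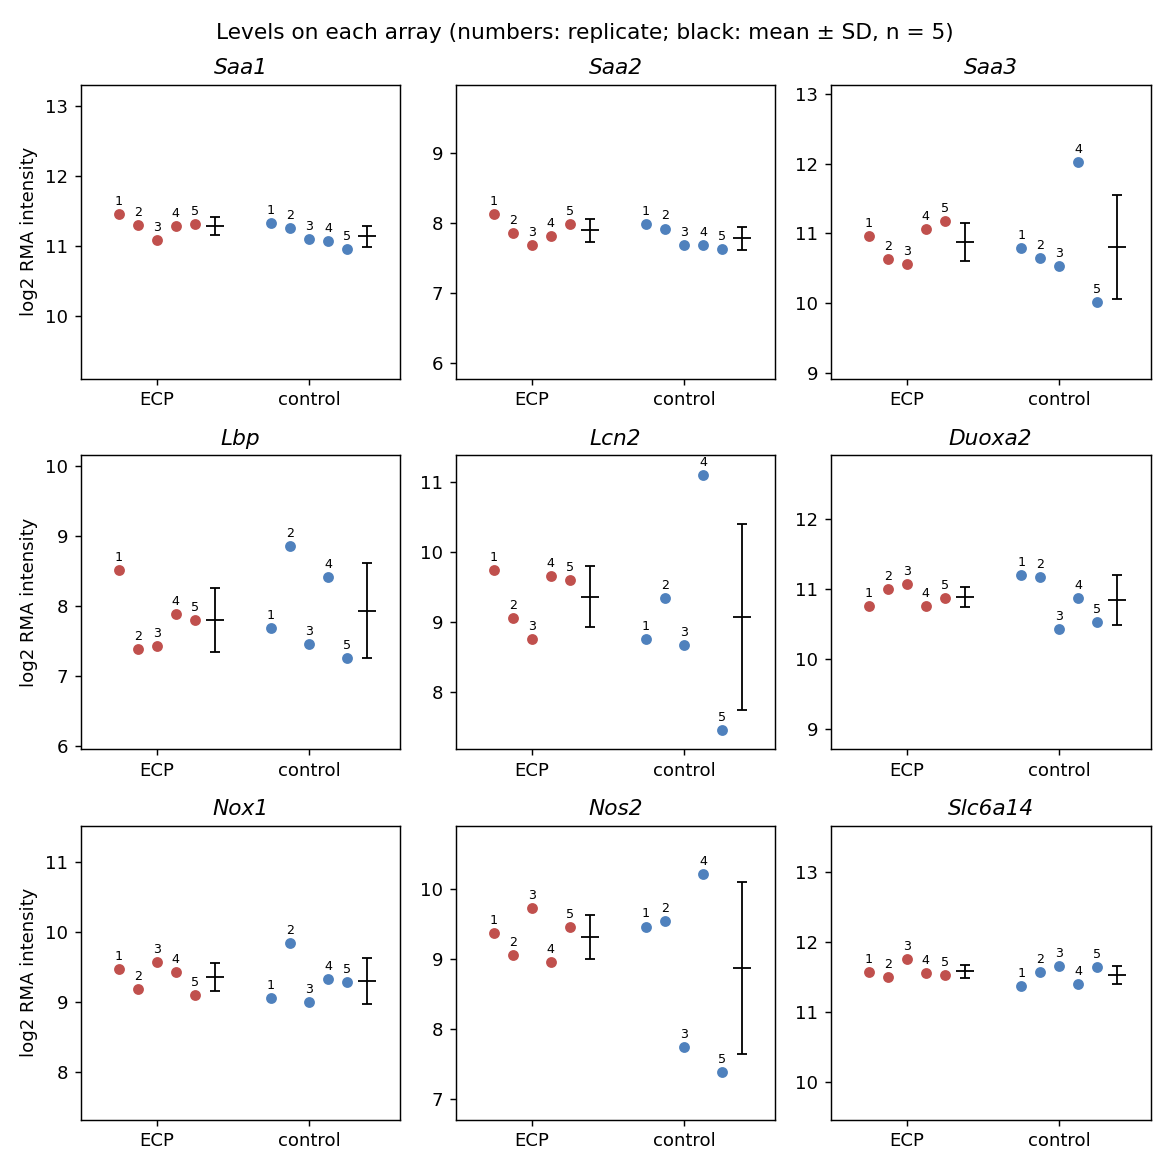
Levels of the 9 genes on each array (vertical axis, log2 RMA intensity, with the same span in every panel), ECP arrays in red left of control arrays in blue; numbers are replicate numbers and black bars are means ± SD (n = 5). Control replicates 4 and 5 hold the ends of the range for Lcn2, Saa3 and Nos2, while Saa1, Saa2 and Slc6a14 hardly vary.

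Among the acute phase genes, Saa1 had 11.45, 11.30, 11.09, 11.29 and 11.31 in ECP replicates 1 to 5, against 11.32, 11.25, 11.09, 11.07 and 10.95 in control replicates 1 to 5. The groups overlapped, with only ECP replicate 1 above every control array. The means were 11.29 ± 0.13 in the ECP arrays and 11.14 ± 0.15 in the control arrays (SD, n = 5 each). The difference was 0.15 (SE 0.09, 95% interval -0.04 to 0.34, limma adjusted p = 0.998). Saa1 had the smallest unadjusted p of the set, 0.117 (limma).

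Saa2, the neighbour of Saa1 in the cluster, had 8.12, 7.85, 7.69, 7.80 and 7.98 in the ECP arrays, against 7.99, 7.92, 7.67, 7.69 and 7.62 in the control arrays. In both groups the order of the arrays was close to that of Saa1: replicate 1 was highest, and replicate 3 lowest in ECP and replicate 5 lowest in control. The difference was 0.11 (SE 0.10, 95% interval -0.11 to 0.33, limma adjusted p = 0.998), and it was 0.054 without ECP replicate 1 and 0.073 without control replicate 5. Across the 10 arrays Saa1 and Saa2 had a Pearson r of 0.94, described without a test. Their transcripts are close copies, so each probe set may read both, and how well the probe sets separate them was not tested.

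Saa3, the family member made by macrophages, fat cells and inflamed epithelium in mice, had 10.96, 10.63, 10.56, 11.06 and 11.18 in the ECP arrays, against 10.79, 10.65, 10.54, 12.03 and 10.02 in the control arrays. Control replicate 4 lay above and control replicate 5 far below all 5 ECP arrays, control replicate 3 lay just below them, and control replicates 1 and 2 lay inside their range. The means of 10.88 ± 0.27 and 10.81 ± 0.74 (SD, n = 5 each) differed by 0.07 (SE 0.30, 95% interval -0.57 to 0.72, limma adjusted p = 1.000). Over the 10 arrays Saa3 had r of 0.23 to Saa1 and 0.17 to Saa2. Control replicate 4 was the highest array for Saa3 but was low for Saa1 (11.07) and Saa2 (7.69). These r were not computed without that array. Without it, Lcn2, which varied with Saa3, had r of 0.85 to Saa1 and 0.72 to Saa2. Between the highest and lowest control array the Saa3 signal differed 4.02-fold, against 1.53-fold between the ECP arrays.

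Lbp had 8.52, 7.39, 7.43, 7.89 and 7.80 in the ECP arrays, against 7.68, 8.86, 7.46, 8.42 and 7.25 in the control arrays. It was the only gene of the set with a lower mean in the ECP arrays (7.80 ± 0.45 against 7.93 ± 0.68 in the control arrays, SD, n = 5 each), by -0.13 (SE 0.31, 95% interval -0.80 to 0.54, limma adjusted p = 1.000). Control replicate 2 set that direction, since the difference was 0.10 without it. Both groups spread widely, 2.18-fold from lowest to highest in the ECP arrays and 3.04-fold in the control arrays.

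Lcn2, whose protein is used in stool as a marker of gut inflammation, had 9.75, 9.06, 8.75, 9.67 and 9.60 in the ECP arrays, against 8.75, 9.34, 8.68, 11.11 and 7.46 in the control arrays. All ECP arrays lay inside the control range, with control replicate 4 far above them, control replicate 5 far below, control replicates 1 and 3 at or just below the lowest ECP array and control replicate 2 among them. The means were 9.37 ± 0.43 in the ECP arrays and 9.07 ± 1.33 in the control arrays (SD, n = 5 each). The difference was 0.30 (SE 0.52, limma adjusted p = 0.998), with a 95% interval from -0.83 to 1.43, that is from 0.56-fold to 2.70-fold. That interval includes no change as well as a difference above a doubling.

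The Lcn2 difference depended on single control arrays. It was 0.81 (SE 0.33, limma unadjusted p = 0.0309, adjusted p = 0.755) without control replicate 4 and -0.10 (SE 0.44, adjusted p = 0.993) without control replicate 5. Without both it was 0.44 (SE 0.24, adjusted p = 0.873), an alternative chosen after seeing the data. For Saa3 the corresponding differences were 0.38 (adjusted p = 0.774), -0.12 (0.983) and 0.22 (0.873), and without ECP replicate 5 the difference was -0.0012.

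**Figure D2:**
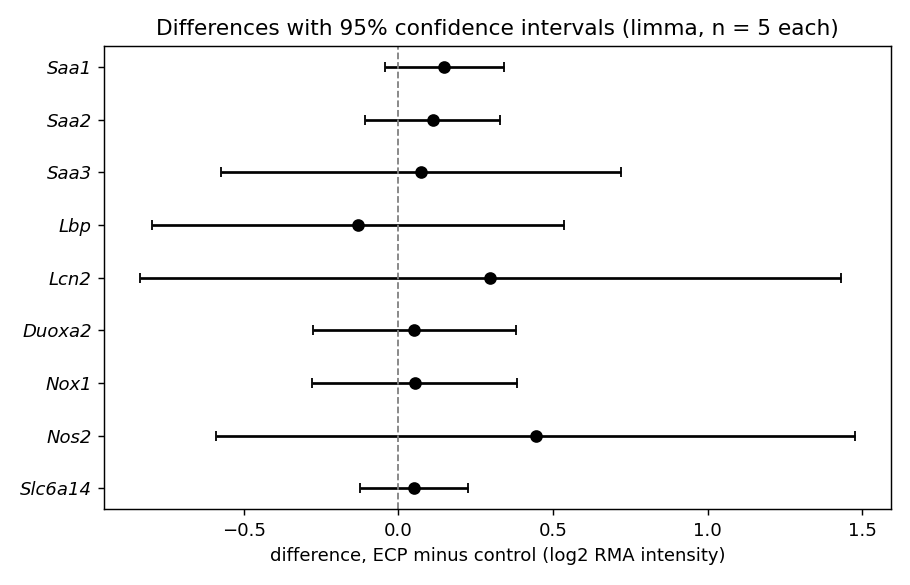
Differences between ECP and control arrays (horizontal axis, ECP minus control, log2 RMA intensity) with 95% confidence intervals from limma, n = 5 arrays each. All 9 intervals include 0; those of Lcn2 (-0.83 to 1.43) and Nos2 (-0.59 to 1.48) are the widest, and that of Slc6a14 (-0.12 to 0.23) is the narrowest.

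Of the oxidant genes, Duoxa2 had 10.76, 10.99, 11.07, 10.75 and 10.86 in the ECP arrays, against 11.19, 11.17, 10.42, 10.87 and 10.52 in the control arrays. Control replicates 1 and 2 lay above and control replicates 3 and 5 below every ECP array. The means, 10.89 ± 0.14 in ECP and 10.83 ± 0.36 in control arrays (SD, n = 5 each), differed by 0.05 (SE 0.15, 95% interval -0.28 to 0.38, limma adjusted p = 1.000). That sign turned without control replicate 3 (-0.05) or control replicate 5 (-0.03).

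Nox1 had 9.48, 9.19, 9.57, 9.44 and 9.11 in the ECP arrays, against 9.06, 9.84, 9.002, 9.33 and 9.28 in the control arrays. Control replicate 2 was the highest of the 10 arrays, and control replicates 1 and 3 were the lowest. The means were 9.36 ± 0.20 in ECP and 9.30 ± 0.33 in control arrays (SD, n = 5 each), a difference of 0.05 (SE 0.15, 95% interval -0.28 to 0.38, limma adjusted p = 1.000). It was 0.19 without control replicate 2, and -0.01 without control replicate 1 and -0.02 without control replicate 3.

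Nos2 had 9.38, 9.06, 9.73, 8.96 and 9.46 in the ECP arrays, against 9.47, 9.55, 7.75, 10.22 and 7.39 in the control arrays. The 5 control arrays lay in 2 bands, with replicates 1, 2 and 4 at or above most ECP arrays and replicates 3 and 5 more than a doubling below every ECP array. The means were 9.32 ± 0.31 in ECP and 8.88 ± 1.23 in control arrays (SD, n = 5 each), the largest difference of the set at 0.44 (SE 0.47, 95% interval -0.59 to 1.48, limma adjusted p = 0.998). Without control replicate 5 it was 0.07, without control replicate 3 it was 0.16, and without control replicate 4 it was 0.78 (adjusted p = 0.813). Control replicates 3 and 5 were also the 2 lowest arrays for Duoxa2, and r between Nos2 and Duoxa2 over the 10 arrays was 0.76.

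Slc6a14 had 11.57, 11.51, 11.76, 11.56 and 11.53 in the ECP arrays, against 11.37, 11.58, 11.66, 11.40 and 11.65 in the control arrays. It had the tightest control values of the set, and control replicates 1 and 4 were its lowest arrays. The difference was 0.05 (SE 0.08, limma adjusted p = 0.998), with a 95% interval of -0.12 to 0.23, that is from 0.92-fold to 1.17-fold. It was 0.0095 without ECP replicate 3, 0.012 without control replicate 1 and 0.020 without control replicate 4, and 0.085 without control replicate 3. Slc6a14 was the 1 gene with negative r to most of the others, from -0.61 with Saa3 to -0.32 with Lbp, and 0.30 with Nox1.

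The spread between control arrays was larger than that between ECP arrays for 8 of the 9 genes, the exception being Saa2 (SD 0.17 in ECP and 0.16 in control arrays). Over all genes, 65.8% had the larger SD in the control arrays, so a larger control SD was the usual case on these arrays. The control SD was at least 2 times the ECP SD for 4 of the 9 genes, Lcn2, Nos2, Saa3 and Duoxa2, against 22% of all genes. Median SDs over all genes were 0.13 in the ECP arrays and 0.16 in the control arrays.

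Lcn2, Nos2, Saa3 and Lbp were among the genes that varied most between control arrays. The control SD of Lcn2 was above that of 99.8% of all genes, Nos2 above 99.7%, Saa3 above 98.9% and Lbp above 98.6%. In the ECP arrays these shares were 99.0% for Lcn2, 96.1% for Nos2, 92.9% for Saa3 and 99.2% for Lbp, so all 4 were variable genes in both groups. Saa1, Saa2 and Slc6a14 sat near the middle or below in the control arrays, at 44.2%, 51.6% and 38.3%.

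**Figure D3:**
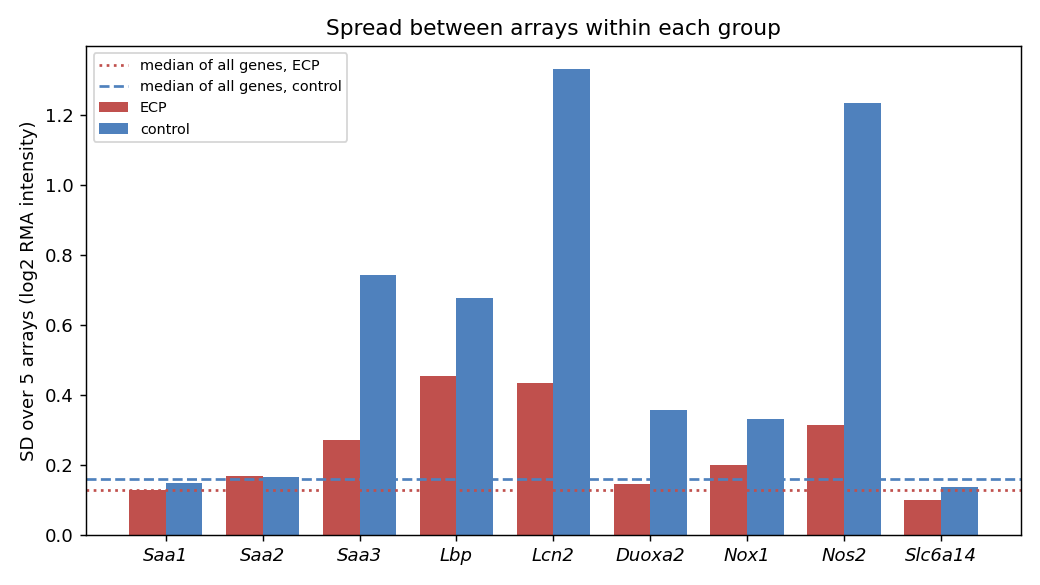
SD over the 5 arrays of each group (vertical axis, log2 RMA intensity, from 0) for the 9 genes, ECP in red left of control in blue, with the median SD of all genes as a dotted line (ECP, 0.13) and a dashed line (control, 0.16). The control bars of Lcn2 (1.33) and Nos2 (1.23) stand highest; their ECP bars are 0.43 and 0.31.

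The difference in spread was tested by fitting limma to absolute deviations from the group mean over all genes. No gene of the set passed after adjustment, and 0.0513% of all genes (10 genes) did. Nos2 came closest: its mean scaled deviation was smaller in the ECP arrays by -0.89 (SE 0.18, limma unadjusted p = 0.000448, adjusted p = 0.199). Duoxa2 followed with -0.19 (SE 0.07, unadjusted p = 0.0226, adjusted p = 0.50), then Lcn2 with -0.63 (SE 0.36, adjusted p = 0.599). With 2 of 9 genes at an unadjusted p under 0.05 and larger spread in the control arrays, the background over all genes was 6.96%; 0 of 9 had such a p with larger spread in the ECP arrays, against 1.92% of all genes.

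The Nos2 spread call depended on the arrays and the method. It passed without control replicate 2 (limma adjusted p = 0.0362) or without control replicate 4 (adjusted p = 0.0361), and had adjusted p = 0.410 without control replicate 3, 0.455 without control replicate 5 and 1.000 with deviations from the group median. The Lcn2 and Saa3 spread lay in control replicates 4 and 5. Without these, the SD of the 3 other control arrays was 0.36 for Lcn2 and 0.13 for Saa3, whereas it was still 1.02 for Nos2 and 0.44 for Duoxa2.

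Control replicate 5 was the lowest control array for 6 of the 9 genes (Saa1, Saa2, Saa3, Lcn2, Nos2 and Lbp). Relative to the ECP mean its Lcn2 signal was 0.27-fold, Nos2 0.26-fold, Saa3 0.55-fold and Lbp 0.68-fold. The highest control array was replicate 1 for 3 genes (Saa1, Saa2 and Duoxa2), replicate 2 for 2 (Nox1 and Lbp) and replicate 3 for Slc6a14. Control replicate 4 was the highest for 3 genes, at 3.34-fold of the ECP mean for Lcn2, 2.22-fold for Saa3 and 1.87-fold for Nos2. In the same array Saa1 was at 0.86-fold, Slc6a14 at 0.88-fold and Duoxa2 at 0.99-fold of the ECP mean. Its signal above 1.5-fold of the ECP mean was found for 4 of the 9 genes, Lcn2, Saa3, Nos2 and, at 1.53-fold, Lbp. The shares of all genes with such ends or folds on these arrays were not computed, so these counts describe the arrays.

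Markers of other cells varied on the same arrays. The mean level of 9 of 10 neutrophil markers with a named probe set (S100a8, S100a9, Cxcr2, Csf3r, Retnlg, Mmp8, Stfa2l1, Camp and Ngp) was 6.20 to 6.81 in the ECP arrays and 5.59 to 8.11 in the control arrays, with control replicate 4 at 8.11 and control replicate 5 at 5.59. By mean, 3 of these markers were higher and 6 lower in ECP, and 0 passed the test. B cell markers (7 of 8) reached 8.56 in control replicate 4, against 5.96 to 7.06 in the ECP arrays and 6.08 to 6.28 in the other control arrays.

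Pancreatic acinar markers (9 of 10) lay between 5.70 and 5.91 on ECP arrays and were 10.73, 6.04, 5.84, 12.54 and 6.88 in control replicates 1 to 5. Epithelial markers (10 of 10, among them Epcam, Cdh1 and Krt20) ranged from 11.71 to 11.77 on ECP arrays and from 11.57 to 11.77 in the control arrays, with control replicate 4 lowest. Monocyte and macrophage markers (8 of 10) ranged from 8.09 to 8.87 on ECP arrays and from 7.76 to 8.90 on control arrays. The part of these cells in the levels of the set was not tested. The covariates in the fits that follow are marker means of the same arrays, so they cannot show which cells made the transcripts. Control replicate 4 held an end of the range for the neutrophil, acinar and epithelial levels. With the neutrophil level as a covariate the Lcn2 difference was 0.46 (SE 0.19, limma unadjusted p = 0.0337, adjusted p = 0.772), Saa3 0.17 (SE 0.09, adjusted p = 0.855) and Nos2 0.56 (SE 0.31, adjusted p = 0.874). With the epithelial level as a covariate they were 0.58 (SE 0.21, unadjusted p = 0.0187, adjusted p = 0.675), 0.23 (SE 0.14, adjusted p = 0.831) and 0.59 (SE 0.41, adjusted p = 0.862). With the acinar level as a covariate these differences were 1.02 (SE 0.51), 0.57 (SE 0.25) and 1.18 (SE 0.43), with adjusted p of 0.980, 0.980 and 0.929. With control replicates 1 and 4 left out they were 0.87, 0.48 and 1.09, with unadjusted p of 0.0404, 0.0209 and 0.0221 and adjusted p of 0.731, 0.672 and 0.678 (limma). This choice removes control replicate 4, the highest control array for Lcn2, Saa3 and Nos2. It keeps control replicates 3 and 5, the lowest for Nos2 (7.75 and 7.39). These differences thus depend on which control arrays remain. The share of all genes with an unadjusted p under 0.05 in this fit is not given here.

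Lcn2 was set against each of the other 8 genes over the 10 arrays, in 8 relations. With Saa3 it had Pearson r = 0.957 (permutation p = 0.00018, adjusted p = 0.00144) and Spearman rho = 0.879 (permutation p = 0.00166, adjusted p = 0.0133). Without control replicates 4 and 5, the 2 arrays farthest from the Lcn2 median, r was 0.806 (permutation p = 0.0248, adjusted p = 0.198), so the relation no longer passed. Within the groups r was 0.907 in the ECP arrays and 0.967 in the control arrays (n = 5 each, described without a test).

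With Nos2, Lcn2 had r = 0.757 (permutation p = 0.00983, adjusted p = 0.0393) and rho = 0.467 (permutation p = 0.177, adjusted p = 0.329). This relation rested on control replicates 4 and 5, since r was 0.289 without them, and it was -0.410 within the ECP arrays against 0.849 within the control arrays. With Lbp, r was 0.676 (permutation p = 0.0262, adjusted p = 0.0699) and rho 0.758 (permutation p = 0.0156, adjusted p = 0.0625). With Saa1, r was 0.349 (permutation p = 0.329, adjusted p = 0.53) and rho 0.297 (permutation p = 0.405, adjusted p = 0.462), but without control replicates 4 and 5 r was 0.706. Saa1 was low in control replicate 4, the array in which Lcn2 was highest. For Saa2, Duoxa2, Nox1 and Slc6a14, r was 0.266, 0.229, 0.182 and -0.513, with adjusted permutation p of 0.609, 0.609, 0.624 and 0.243 and rho of 0.406, 0.091, 0.430 and -0.418, whose adjusted permutation p were 0.329, 0.809, 0.329 and 0.329. Without the same 2 arrays these r were 0.606, -0.117, 0.350 and -0.158. Within the ECP arrays, r with Lcn2 was 0.818 for Saa1, 0.824 for Lbp and 0.754 for Saa2. For Duoxa2, Nox1 and Slc6a14 it was -0.972, -0.195 and -0.632. Within the control arrays, r was 0.201 for Saa1, 0.722 for Lbp and 0.087 for Saa2. For Duoxa2, Nox1 and Slc6a14 it was 0.373, 0.243 and -0.599 there (n = 5 each, described without a test).

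**Figure D4:**
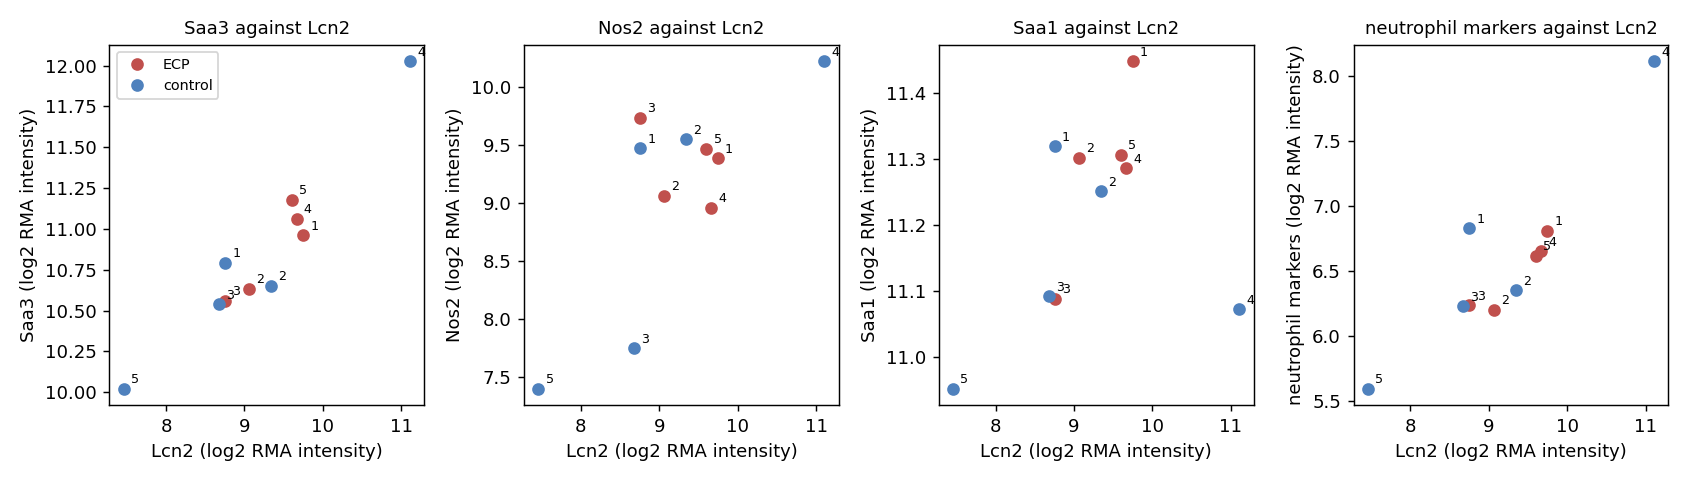
Saa3, Nos2, Saa1 and the mean of 9 neutrophil markers (vertical axes, log2 RMA intensity) against Lcn2 (horizontal axis, log2 RMA intensity) on each array, ECP in red and control in blue, with replicate numbers. Saa3 runs along Lcn2 over all arrays (r = 0.957), Nos2 does so mainly through control replicates 4 and 5, and Saa1 is low in control replicate 4 (11.07).

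Genes outside the set with the most similar pattern were found by Pearson r to the mean of the 9 genes, each scaled to mean 0 and SD 1, over the 10 arrays. The 8 highest were Ctps, a CTP synthase (r = 0.95), Ccl2, a monocyte-attracting chemokine (0.94), Steap4, a metalloreductase (0.93), Tac1, the precursor of substance P (0.91), the purine synthesis enzyme gene Atic (0.91), the helicase gene Ddx42 (0.91), Snx9, a sorting nexin (0.91) and Myo7a, a myosin (0.91). These are the top values of a search over all genes and are given as a description. The 9 genes themselves had r to this mean from -0.33 (Slc6a14) to 0.88 (Nos2), with Nox1 at 0.57 and Saa3 at 0.60. The mean is thus not a pattern common to all of the set. The scaled mean itself was lowest in control replicates 5 (-1.13) and 3 (-0.80) and highest in control replicate 2 (0.69), against -0.14 to 0.65 in the ECP arrays. None of the 8 differed between groups (limma adjusted p of 0.996 to 0.998).

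The pathways around the set showed no gene past the threshold in any of 10 lists. In the serum amyloid A family and its receptors, 0 of 9 measured genes passed in either direction, 5 had a higher and 4 a lower mean in ECP, and the median difference was 0.07. Tlr2, a Toll-like receptor for lipopeptides that also senses serum amyloid A, was higher by 0.29 (SE 0.09, limma unadjusted p = 0.00877, adjusted p = 0.700), the fatty acid receptor gene Cd36 by 0.30 (SE 0.24), and the lipoprotein receptor gene Scarb1 was lower by -0.06 (SE 0.11). Of 12 lipopolysaccharide recognition genes 0 passed, 5 were higher and 7 lower (median -0.03). The flagellin receptor gene Tlr5 averaged 6.68 ± 0.17 in ECP arrays and 6.29 ± 0.18 in control arrays (SD, n = 5 each), a difference of 0.39 (SE 0.10, limma unadjusted p = 0.00260, adjusted p = 0.471), and Bpi, which codes for a bactericidal lipopolysaccharide-binding protein related to LBP, was at -0.19 (SE 0.10).

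Around lipocalin 2, 0 of 16 iron-withholding genes passed, 14 had a higher and 2 a lower mean in ECP (median 0.08), where 53.3% of all genes had a higher mean. The list difference was 0.11 with all arrays, 0.02 without control replicate 5 and 0.22 without control replicate 4. The iron exporter gene Slc40a1 differed by 0.16 (SE 0.09), the transferrin receptor gene Tfrc by 0.17 (SE 0.10) and the ferritin light chain gene Ftl1 by 0.09 (SE 0.06). Of 22 acute phase genes, which include 5 of the set, 0 passed, 15 were higher and 7 lower (median 0.05). Crp, the gene of C-reactive protein, averaged 4.27 ± 0.22 in ECP arrays and 3.82 ± 0.25 in control arrays (SD, n = 5 each), with a difference of 0.45 (SE 0.13, limma adjusted p = 0.604), at a low signal that only 8.50% of genes fell below. The inter-alpha-trypsin inhibitor gene Itih4 was at -0.34 (SE 0.14, adjusted p = 0.939) and Steap4 at 0.26 (SE 0.23).

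Of 13 NADPH oxidase genes 0 passed, 11 had a higher and 2 a lower mean in ECP (median 0.05). Noxa1, the activator subunit of NOX1, differed by 0.16 (SE 0.07, limma adjusted p = 0.957), the inner ear oxidase gene Nox3, at a signal of 4.19 ± 0.07 in ECP and 4.02 ± 0.11 in control arrays (SD, n = 5 each), by 0.17 (SE 0.07, adjusted p = 0.939), and Duox1, the paralogue of Duox2, by 0.11 (SE 0.10). Of 10 nitric oxide and arginine genes 0 passed, 7 were higher and 3 lower (median 0.13), with the endothelial synthase gene Nos3 at -0.19 (SE 0.11), the neuronal synthase gene Nos1 at 0.25 (SE 0.14) and the polyamine enzyme gene Odc1 at 0.14 (SE 0.09). Of 22 antioxidant genes 0 passed, 16 were higher and 6 lower (median 0.04), with the sulfiredoxin gene Srxn1 at 0.16 (SE 0.07, limma adjusted p = 0.966), the peroxiredoxin gene Prdx4 at -0.13 (SE 0.08) and the quinone reductase gene Nqo1 at 0.26 (SE 0.16). Of 13 amino acid carriers 0 passed, 7 were higher and 6 lower (median 0.0020), with the glutamine carrier genes Slc38a2 at -0.12 (SE 0.06) and Slc38a1 at 0.12 (SE 0.07) and the proline carrier gene Slc6a20a at -0.19 (SE 0.14).

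No cytokine gene that can induce the set passed the test. Of 12 measured cytokine genes, 10 had a higher and 2 a lower mean in ECP, with a median difference of 0.22, where 53.3% of all genes had a higher mean. The mean level of this list was 6.31 to 6.69 on ECP arrays and 5.69 to 6.72 on control arrays, with control replicate 5 lowest; the list difference was 0.26 with all arrays and 0.12 without that array, an alternative chosen after seeing the data. Adipocyte markers had a higher mean in ECP for 8 of 8 genes, against 53.3% of all genes. The same held for 8 of 8 smooth muscle and 7 of 7 measured fibroblast markers, but for 0 of 7 B cell and 0 of 9 acinar markers. The B cell direction rested on control replicate 4: dropping it turned the list mean, ECP minus control, from -0.33 to 0.15. Dropping control replicate 1 likewise turned the fibroblast list from 0.08 to -0.03. The adipocyte, smooth muscle and acinar lists kept their sign whichever single array was dropped. Adipocyte list levels were 6.40 to 7.26 on ECP arrays and 5.88 to 6.88 on control arrays, again with control replicate 5 lowest. The part of these cells in the cytokine levels was not tested. Il1a, an alarmin cytokine, averaged 6.52 ± 0.43 in ECP arrays and 5.69 ± 0.95 in control arrays (SD, n = 5 each), a difference of 0.83 (SE 0.39, limma adjusted p = 0.988), Il22 differed by 0.24 (SE 0.11) and Il17a by 0.19 (SE 0.09). Of 22 receptors and transcription factors 11 were higher and 11 lower (median -0.01), and 0 passed. Nfkb2, an NF-kB subunit gene, was lower by -0.20 (SE 0.08, limma adjusted p = 0.903), Cebpd, a C/EBP factor gene of the acute phase response, by -0.39 (SE 0.19, adjusted p = 0.996) and the interferon regulatory factor gene Irf1 by -0.13 (SE 0.07). The 10 lists together held 141 different measured genes, of which 8 (5.67%) had an unadjusted p under 0.05 (limma), a share near the 5.08% of all genes. They were Tlr2, Tlr5, Crp, Nox3, Noxa1 and Srxn1 higher and Itih4 and Nfkb2 lower in the ECP arrays.

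**Figure D5:**
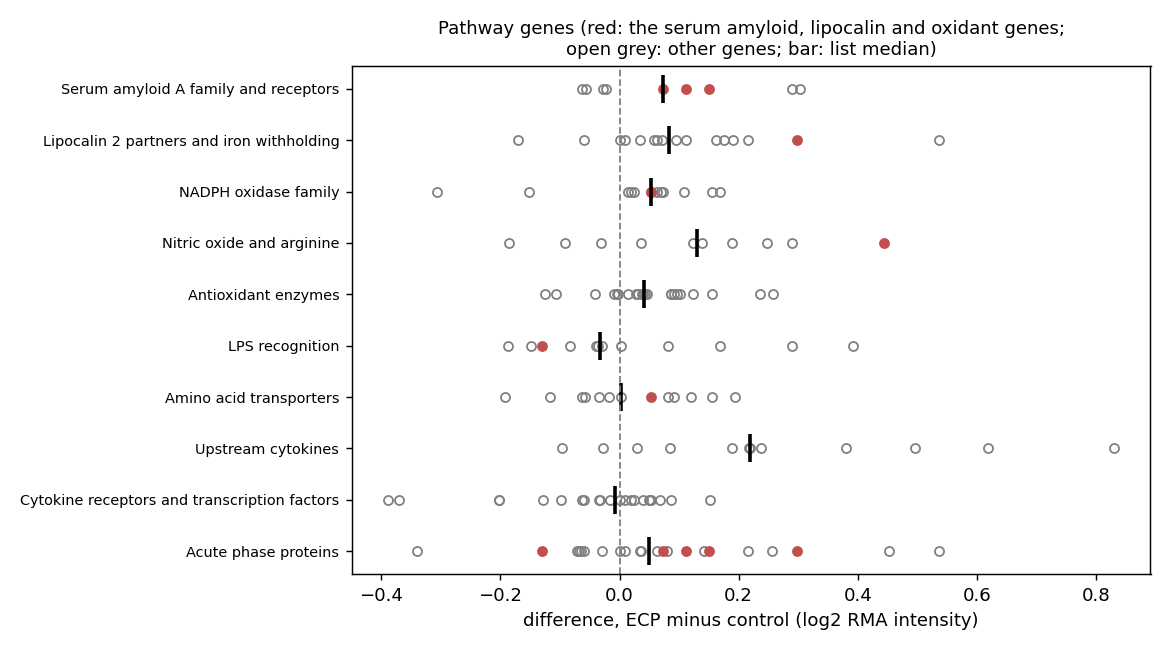
Differences between ECP and control arrays (horizontal axis, ECP minus control, log2 RMA intensity) for each measured gene of 10 pathway lists; filled red points are genes of the set, open grey points other genes and black bars list medians. List medians lie between -0.03 (LPS recognition) and 0.22 (upstream cytokines), and no point passed the threshold.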

How the data were processed

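Per the submitters' processing notes, the authors used oligo and RMA; the deposited values, which RMA by its definition background-corrects, quantile-normalises and summarises, are log2 probe set intensities of 22203 probe sets on 10 single-colour arrays, with versions not given in the sources used here. RMA forces a common distribution (array medians 6.94 to 6.98), so a change common to the majority of genes is removed. The platform annotation named 19572 probe sets, all matched to RefSeq, giving 19505 genes after the probe set of highest mean was kept for 55 genes with several.

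Groups and replicate numbers came from sample titles (5 ECP, 5 control); no batch, date or slide is given. Genes were compared with limma 3.58.1 in R 4.3.3 (lmFit, eBayes, two-sided, no covariate, no filter, Benjamini-Hochberg over all genes, threshold 0.05). Spread was compared by the same fit on absolute deviations from the group mean, scaled for group size. Correlations used 100000 permutations, two-sided, and Python 3.11.15. The limma and permutation tests were run on simulated data as a check of the code. For the difference, both groups had equal spread there, unlike Lcn2, Nos2 and Saa3 here. The permutation check used a single unrelated and a single related pair of series, so it gives no error rate. Named genes are the 10 genes of the set, up to 3 other genes with the smallest p in each list and the 8 most alike in pattern. The genes and lists were chosen with earlier results of these data known. No pairing by replicate number was seen (r of deviations -0.24 to 0.08), but 5 pairs cannot exclude a shared animal or batch. Alternatives covered scaling, dim genes, probe sets, variance model, array weights, left-out arrays and covariates.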

Additional observations from a re-analysis of the deposited data

Results flagged for a closer look

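In 6 of 38 groups of 5 arrays (the 9 genes and 10 marker lists, each in ECP and control arrays) 1 array stood apart. There the distance to the nearest array exceeded 0.71 of the whole range. Chance would give about 2 for independent groups of normal values. The groups share arrays and vary together, and control replicate 4 accounts for the B cell, T cell and epithelial cases, so no excess is read from this. Only 1 of the 6 concerned a gene of the set: Slc6a14 in ECP replicate 3 (11.76, next 11.57). The highest array for B cell markers was control replicate 4 (8.56, next 6.28), which was also highest for T cell markers (7.22, next 6.30) and lowest for epithelial markers (11.57, next 11.73). Adipocyte markers were low in ECP replicate 2 (6.40, next 7.14) and in control replicate 5 (5.88, next 6.68), the array lowest in Lcn2, Nos2 and Saa3. Whether fat or lymphoid cells had a part in the levels of the set was not tested.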

How the results depend on the processing

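For the difference between groups, 0 genes were called; 1 was called when the lowest quartile of genes was left out or with limma's trend and robust options, 7 when genes below the median were left out, and 0 to 1 when 1 array was left out. No gene of the set was called under any alternative run. The replicate numbers share no stated animal or batch, and the replicate block also called 0 genes, with 8 of 9 genes of the set higher. Leaving out 1 array moved the number of genes higher in ECP between 5 and 9, and the differences over -0.12 to 0.38 for Saa3, -0.10 to 0.81 for Lcn2, -0.051 to 0.14 for Duoxa2, -0.022 to 0.19 for Nox1 and -0.31 to 0.10 for Lbp, each with a change of sign; those of Saa1 (0.10 to 0.20), Saa2 (0.054 to 0.16), Nos2 (0.073 to 0.78) and Slc6a14 (0.0095 to 0.085) stayed positive. With array weights, Saa3 was at 0.25, Lcn2 at 0.52, Nos2 at 0.74, Duoxa2 at 0.12, Nox1 at 0.013 and Slc6a14 at 0.0067, with limma adjusted p of 0.846 to 0.997. Nox1 and Slc6a14 turned to -0.018 and -0.044 without control replicates 1 and 4, to -0.064 and -0.035 without control replicates 1, 4 and 5, and to -0.0091 and -0.052 with the acinar covariate, and Duoxa2 to -0.040 without control replicates 4 and 5.

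For the spread, the 10 called genes became 0 with genes below the median left out, trend and robust options, deviations from the group median, or control replicates 1 and 4 or 4 and 5 left out, and 0 to 72 when 1 array was left out (72 without control replicate 2). With 1 array left out, 0 to 1 gene of the set was called and 0 to 2 had larger ECP spread. Larger ECP spread was found for 1 gene with the group median (Saa2, 0.00046), 1 without control replicates 1 and 4 (Slc6a14, 0.034) and 2 without control replicates 4 and 5 (Saa3, 0.14, and Lcn2, 0.067). With 1 array left out, Saa2 ranged over -0.057 to 0.033 and Nox1 over -0.13 to 0.028. Of the 8 Lcn2 relations, 2 passed; 1 to 3 did when 1 array was left out and 0 without control replicates 4 and 5, where Saa3 stood at 0.806 (adjusted permutation p = 0.198) and Duoxa2 at -0.117. The Nos2 relation no longer passed without any of ECP replicates 1, 2 and 5 or control replicates 3, 4 and 5 (adjusted permutation p 0.0612 to 0.349). With 1 array left out r ranged over -0.072 to 0.85 for Saa1, -0.037 to 0.72 for Saa2 and -0.10 to 0.35 for Duoxa2. The causes of these shifts were not tested.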
